A study of Mus musculus with 288 samples.

Results

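The 9 genes described here encode glucose and fructose transporters of the Slc2a family: Slc2a1, Slc2a2, Slc2a3, Slc2a4, Slc2a5, Slc2a8, Slc2a9, Slc2a10 and Slc2a12. They were chosen by name, with earlier results of these data known, as 9 of the 12 Slc2a genes in the deposited tables. They are 9 of 35904 genes in all. Male wild type C57BL/6J mice, 8 weeks old at the start, were exposed for 7 days to normoxia or to intermittent hypoxia (IH). In IH, oxygen moved between 21% and 8%. The authors gave IH only in the light, inactive phase of each day, and all mice were in normoxia in the dark phase. All animals were then held in normoxic, constant darkness for 2 days, so no animal was in IH when its tissues were taken. Lung, liver, kidney, muscle, heart and cerebellum were collected on the 2nd day in darkness at 8 times, 3 h apart, with 3 libraries for each tissue, treatment and time. This gave 24 libraries for each tissue and treatment. The authors give 3 mice for each treatment and time, from which the organs were collected, so libraries of different tissues shared mice. The labels do not say which libraries of different tissues came from the same mouse. Tests across tissues therefore took all libraries as independent, although they were not.

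Slc2a proteins are membrane carriers that let hexoses pass down their concentration gradient without the use of energy. Slc2a1 supplies basal glucose uptake in many cells, including those of the vessels of the brain, and Slc2a4 is the insulin-regulated carrier of muscle, heart and fat. Slc2a2 carries glucose and fructose with low affinity in liver and kidney tubules, Slc2a5 is a fructose carrier, and Slc2a9 is known mostly as a urate carrier.

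Levels are compared between tissues as TPM as deposited, a value per transcript length. Treatments and times are compared as TPM scaled within each tissue by the median of ratios. This scaling moved the median log2 change of all genes in lung from 0.21 as deposited to −0.08, in heart from 0.15 to 0.04 and in liver from −0.12 to −0.01; elsewhere it moved by under 0.1. The labelled tissues held their own cell types' markers. The median summed scaled TPM of 6 markers in normoxia was 49236 for alveolar type II cells in lung, 78172 for hepatocytes in liver and 49938 for proximal tubule in kidney. It was 111006 for skeletal muscle fibres in muscle, 18044 for cardiomyocytes in heart and 4753 for cerebellar neurons in cerebellum, with no marker near 0 in its own tissue.

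3 libraries stood apart from the other libraries of their tissue and are named here because several results touch them. The liver IH library of replicate 2 at 13:30 had a median Pearson r of 0.693 with the other liver libraries, and 63.3% of its TPM came from 1 processed pseudogene, Gm19220. In the cerebellum IH library of replicate 3 at 1:30 the median r was 0.767 and Gm19220 held 45.4%. For the heart normoxia library of replicate 3 at 7:30 the median r was 0.822. Gm19220 also held over 10% of TPM in 16 other libraries (9 of kidney, 6 of cerebellum and 1 of muscle; at most 36.5%). Since TPM has a fixed sum, such a share lowers the TPM as deposited of all other genes in that library. The number of genes detected also moved with treatment. In heart it was 22988 to 28331 in normoxia and 20316 to 22793 in IH, so all 24 IH libraries lay below the lowest normoxia library, whereas in lung 9 of 24 IH libraries lay above the highest normoxia library (21746 to 25400 in normoxia, 23622 to 28284 in IH).

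The 9 genes lie on 7 chromosomes, in build GRCm38. Slc2a9 is the longest, with 153871 bases on chromosome 5, and Slc2a4 the shortest, with 5650 bases on chromosome 11. 4 of the 9 overlapped another annotated gene: Slc2a1 (3 genes, the largest overlap being 4235 bases with the antisense Gm12868), Slc2a2 (28693 bases with the antisense 1700112D23Rik), Slc2a3 (the pseudogene Gm4482) and Slc2a12 (407 bases with Tbpl1). A promoter window of 250 bases could be read for 7 of 9 genes, and not for Slc2a3 and Slc2a4. For 4 genes the part before the annotated start is printed because their calls between treatments or over time recur below. All 4 are 5′ to 3′ on the strand of the gene, end before its 1st annotated exon and lie outside the annotated transporter gene. Overlap of these stretches with other genes was not checked. They are Slc2a1 at chr4:119108495-119108710 (plus strand), Slc2a2 at chr3:28697653-28697902 (plus strand), Slc2a5 at chr4:150119094-150119282 (plus strand) and Slc2a8 at chr2:32982084-32982333 (minus strand). Capitals mark the core of a hypoxia response element, ACGTG or GCGTG, read on either strand.
Slc2a1: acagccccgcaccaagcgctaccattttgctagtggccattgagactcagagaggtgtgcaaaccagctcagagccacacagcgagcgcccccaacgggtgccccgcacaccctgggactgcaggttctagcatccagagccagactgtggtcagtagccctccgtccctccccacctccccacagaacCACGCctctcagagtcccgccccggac
Slc2a2: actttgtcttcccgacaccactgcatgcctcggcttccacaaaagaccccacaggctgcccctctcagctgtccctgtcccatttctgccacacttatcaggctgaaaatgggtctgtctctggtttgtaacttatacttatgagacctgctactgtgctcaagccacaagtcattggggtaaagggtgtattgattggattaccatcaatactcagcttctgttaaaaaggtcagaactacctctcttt
Slc2a5: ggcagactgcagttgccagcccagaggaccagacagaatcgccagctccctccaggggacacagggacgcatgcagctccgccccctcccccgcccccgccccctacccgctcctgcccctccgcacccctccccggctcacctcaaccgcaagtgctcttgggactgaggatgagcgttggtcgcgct
Slc2a8: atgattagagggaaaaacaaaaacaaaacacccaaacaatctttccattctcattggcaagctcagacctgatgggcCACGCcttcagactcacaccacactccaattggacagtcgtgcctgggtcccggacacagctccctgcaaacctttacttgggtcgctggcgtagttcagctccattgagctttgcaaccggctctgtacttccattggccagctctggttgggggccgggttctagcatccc

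A core stood in the window of 2 of 7 genes, Slc2a1 and Slc2a8, and in 38.6% of 32851 mouse promoters. The clock motifs E-box (CACGTG, 6.02% of promoters) and D-box (TTATGTAA, 0.819%) stood in 0 of 7. The windows of Slc2a1, Slc2a5 and Slc2a10 ran past the annotated start of the gene, and that of Slc2a9 lay inside the annotated gene. The Slc2a1 window held 2 cores, of which 1 lies in the stretch printed. These are matches of letters, and binding was not measured.

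Each transporter had its own order of tissues in normoxia, and in every tissue Slc2a4, Slc2a2 or Slc2a1 had the largest share. Slc2a4 made up 89% of the summed TPM of the 9 genes in muscle (SD 1.41 over 24 libraries) and 82.9% in heart (SD 3.69). Slc2a2 held 74.6% in liver and 42.2% in kidney. In cerebellum and lung Slc2a1 had the largest share, with 55.7% and 33.3%.

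**Figure D1:**
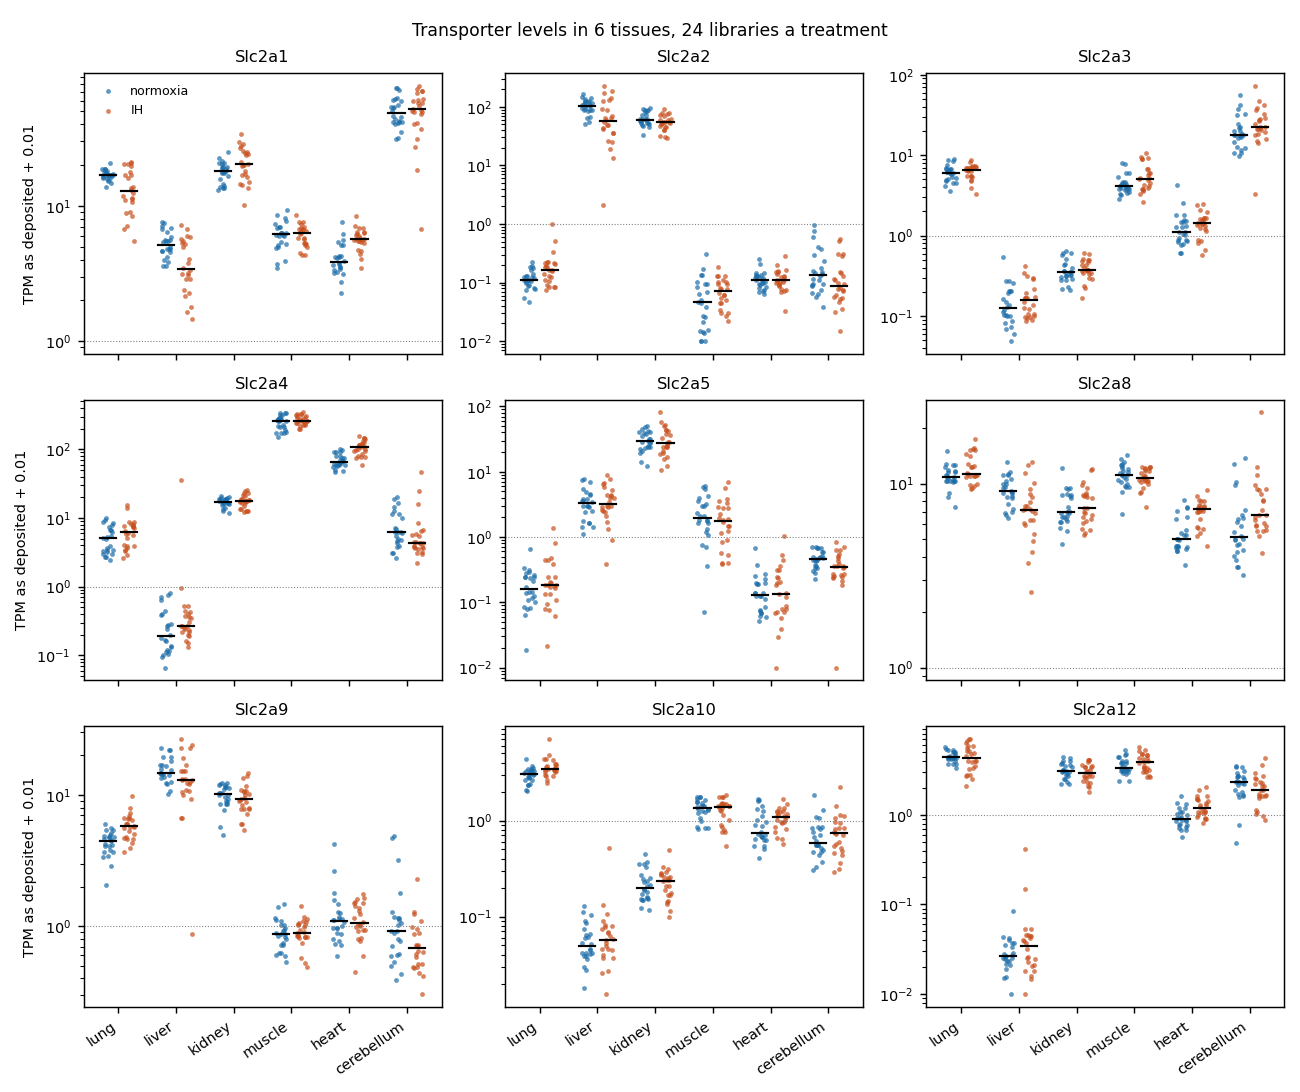
Level of each transporter gene in every library, as TPM as deposited plus 0.01 on a log axis, by tissue. Blue points are normoxia and orange points IH libraries, 24 of each per tissue; black bars are medians and the dotted line marks 1 TPM.

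For Slc2a1 the lowest, median and highest TPM as deposited in normoxia were 31.3, 48.3 and 75 in cerebellum, 13.2, 18 and 24.9 in kidney, and 13.8, 16.9 and 20.7 in lung. They were 3.48, 6.18 and 9.37 in muscle, 3.58, 5.16 and 7.6 in liver and 2.27, 3.84 and 7.61 in heart. Every cerebellum library thus exceeded every library of the other 5 tissues. Permuting libraries between tissues, 14 of 15 tissue pairs differed for Slc2a1, and only kidney and lung did not (adjusted p = 0.281). Across the 9 genes 127 tissue pairs differed and 8 did not; the smallest adjusted p that 100000 resamples allowed was 1.25e-05, and larger values are given where a neighbour in the order missed the threshold.

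Slc2a2 was a gene of 2 tissues. Its lowest, median and highest TPM as deposited in normoxia were 51.1, 104 and 168 in liver and 33, 60.2 and 94.4 in kidney. In the other 4 tissues no normoxia library reached 1 TPM, and the medians ran from 0.0357 in muscle to 0.124 in cerebellum. Lung and heart were the only neighbours that did not differ (adjusted p = 0.812).

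Slc2a3, a high-affinity glucose carrier of neurons, was highest in cerebellum, at 9.75, 17.7 and 55.9 TPM as deposited (lowest, median, highest). Medians followed in the order lung (6.07), muscle (4.08), heart (1.1), kidney (0.341) and liver (0.116), and all 15 pairs differed. Slc2a4 ran from 152, 262 and 337 TPM in muscle through 47.4, 65.7 and 99.5 in heart to 0.0565, 0.179 and 0.799 in liver. Between these stood kidney (median 17.4), cerebellum (6.24) and lung (5.02), and all 15 pairs differed for Slc2a4 as well.

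Among the fructose and urate carriers, Slc2a5 had its highest level in kidney, with 12.1, 29.1 and 49.4 TPM as deposited. Its medians were 3.26 in liver, 1.93 in muscle, 0.455 in cerebellum, 0.149 in lung and 0.12 in heart, where the last 2 did not differ (adjusted p = 0.416). Slc2a9 led in liver, with 10.2, 14.7 and 22.9 TPM, before kidney (median 10.2) and lung (4.47). Its 3 lowest tissues, heart (1.09), cerebellum (0.908) and muscle (0.86), did not differ between neighbours in this order (adjusted p = 0.619 and 0.231), while heart and muscle differed (adjusted p = 0.00789).

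Slc2a8, a carrier held largely on membranes inside the cell, was the most even of the 9. Its medians in TPM as deposited lay between 11.1 in muscle and 4.97 in heart, with muscle and lung (10.9; adjusted p = 0.776) and cerebellum (5.11) and heart (adjusted p = 0.400) as the pairs of neighbours that did not differ. Slc2a10, known from arterial tortuosity syndrome, was highest in lung (2, 3.04 and 4.33 TPM) and lowest in liver (median 0.0391), and all 15 pairs differed. Slc2a12 also led in lung (3.3, 4.37 and 5.72 TPM), and muscle (3.36) and kidney (3.1) did not differ for it (adjusted p = 0.0708). In liver Slc2a12 stayed below 0.1 TPM in all 24 normoxia libraries.

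After IH, Slc2a8 passed the adjusted p in 5 tissues and Slc2a1 in 4, with directions that were not the same in all of them. On scaled TPM, Slc2a1 in lung and Slc2a2 in liver fell by over 1.5-fold, and Slc2a4 and Slc2a1 rose in heart by less than 1.5-fold. A gene was called with limma at an adjusted p of 0.05 over all genes tested and a 1.5-fold change, or, as a 2nd rule, at the adjusted p alone. By the 2nd rule the share of all genes called ran from 10.37% in muscle to 70.43% in lung. Genes needed a mean of 1 TPM in the tissue, which 7 of 9 passed in lung, kidney and muscle and 6 of 9 in liver, heart and cerebellum.

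By the 1.5-fold rule 1 of 7 transporters was called in lung (13.48% of all 15426 genes), 1 of 6 in liver (3.65% of 11334) and 0 in kidney (0.78% of 12902), muscle (0.37% of 12824), heart (2.95% of 12779) and cerebellum (2.64% of 14892). By the adjusted p alone, also from limma, the counts were 4 of 7 in lung, all falling (70.43% of all genes), 3 of 6 in liver, all falling (24.25%), and 1 of 7 in kidney, rising (19.78%). They were 1 of 7 in muscle, falling (10.37%), 4 of 6 in heart, all rising (45.23%), and 1 of 6 in cerebellum, rising (15%). Tissues with 0 by the 1.5-fold rule were also counted at an unadjusted p < 0.05. There limma passed 1 transporter in kidney (33% of all genes), 1 in muscle (23.9%), 4 in heart (52%) and 3 in cerebellum (30.3%). Of all genes, those rising and falling by the adjusted p alone numbered 4464 and 6400 in lung, 1240 and 1508 in liver and 3573 and 2207 in heart. By the 1.5-fold rule the balance was the other way in lung (1402 rising, 677 falling) and heart (141 and 236), and in liver 125 rose and 289 fell.

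**Figure D2:**
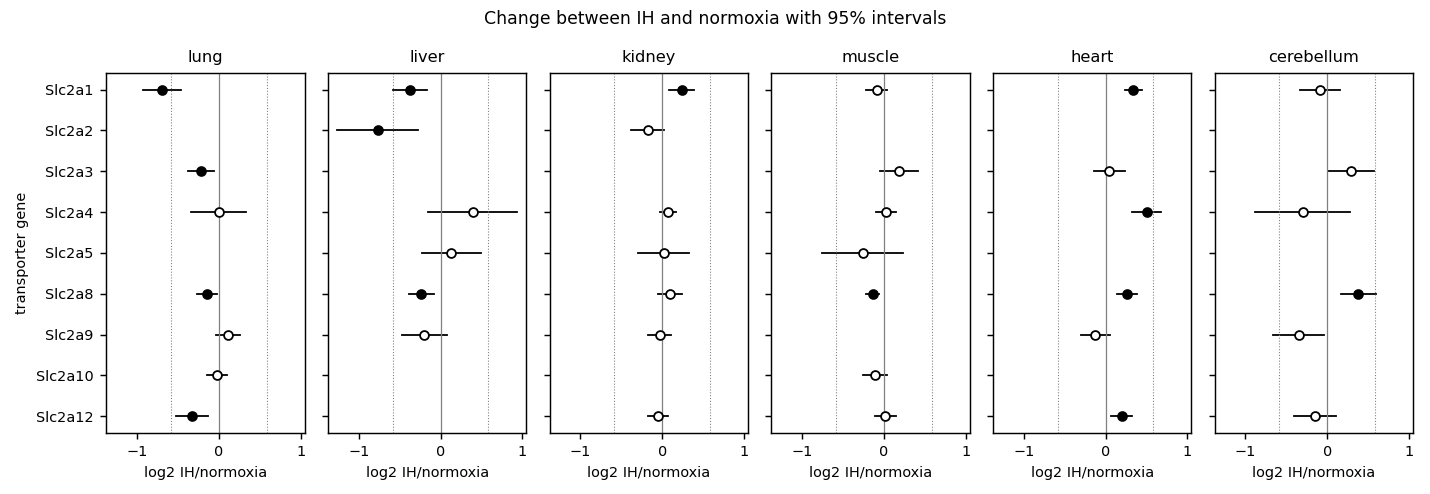
Log2 change of scaled TPM between IH and normoxia for each transporter gene with a mean of at least 1 TPM, by tissue, with 95% confidence intervals from limma (24 libraries a treatment). Filled points passed an adjusted p of 0.05 over all genes; dotted lines mark a 1.5-fold change.

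In lung, scaled TPM of Slc2a1 was 15.6, 18.2 and 25.5 (lowest, median, highest) in normoxia and 5.09, 11.3 and 19.51 in IH. 18 of 24 IH libraries lay below the lowest normoxia library, and means were lower at all 8 times. The log2 change was −0.69 (95% interval −0.92 to −0.46; limma, adjusted p = 7e-07), a fall of 38.2%. It was not the same in libraries of each replicate number, a split made after seeing the data: the change was −0.91 and −0.93 within numbers 1 and 2 and −0.24 within number 3 (8 libraries a treatment each). As TPM as deposited the fall was smaller than 1.5-fold (−0.40, adjusted p = 0.00117), and without replicate number 2 it was −0.57. When the model also held each library's count of genes detected, the lung change of Slc2a1 was −0.03 (adjusted p = 0.875).

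Slc2a12, a further glucose carrier, had 4.02, 4.9 and 6.1 scaled TPM in lung in normoxia and 1.91, 3.99 and 6.4 in IH. The ranges overlapped, though 12 of 24 IH libraries lay below the lowest normoxia library (log2 change −0.33, adjusted p = 0.00213). Within replicate numbers 1 and 2 Slc2a12 changed by −0.69 and −0.50, and within number 3 it rose by 0.20 (adjusted p = 0.0198). Slc2a3 went from a median of 6.71 to 5.89 (log2 change −0.22, adjusted p = 0.0162) and Slc2a8 from 11.8 to 10.6 (−0.15, adjusted p = 0.03). Without replicate number 1 or number 2 the calls of Slc2a3, Slc2a8 and Slc2a12 ended, and only Slc2a1 was called in lung. On the scaled values Slc2a4 (log2 change 0.00), Slc2a9 (0.11) and Slc2a10 (−0.02) did not pass the test.

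The direction of the lung calls depended on the setting. As TPM as deposited 4 of 7 were also called by the adjusted p alone, but Slc2a8 (0.14), Slc2a9 (0.38) and Slc2a10 (0.24) rose and only Slc2a1 fell. With genes detected as a term none of the 4 falls remained, and the 2 calls were rises, of Slc2a4 (0.60, past 1.5-fold, adjusted p = 0.037) and Slc2a12 (0.30, adjusted p = 0.0103). Slc2a4 also rose past 1.5-fold within replicate number 3 (0.90, adjusted p = 0.00158).

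Markers of several lung cell types fell over the same libraries as Slc2a1. By the 1.5-fold rule 13.48% of all 15426 genes were called in lung, 677 falling and 1402 rising. By that rule 5 of 6 alveolar type II markers fell. Their summed scaled TPM was 44585, 49236 and 59806 in normoxia and 10820, 36179 and 47215 in IH, with Sftpc the most abundant. For endothelium 4 of 6 fell (summed 1169, 1672 and 1984, then 582, 1143 and 1624; Cldn5 the most abundant), and for platelets 5 of 5 (medians 191 and 135.1; Pf4). Red cell markers fell for 4 of 5 (medians 36752 and 22767; Hbb-bs) and lymphocyte markers for 3 of 6, while 3 of 6 cardiomyocyte markers rose. No marker of these lists was near 0 in lung. In bulk tissue, fewer cells of a type and less RNA per cell cannot be told apart, and the part of these cells in the Slc2a1 change was not tested.

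In liver, Slc2a2 had 53.4, 95.6 and 131 scaled TPM in normoxia and 3.99, 60.8 and 199.1 in IH. 10 of 24 IH libraries lay below the lowest normoxia library, and others lay above the highest, so the IH range enclosed the normoxia range. The log2 change was −0.77 (95% interval −1.27 to −0.27; limma, adjusted p = 0.0186) and −0.61 without the liver library that stood apart (adjusted p = 0.0164). The IH libraries differed by replicate number. Number 3 gave 77.1 to 199.1 scaled TPM, above every IH library of number 1 (13.1 to 65.4) and number 2 (3.99 to 74.1), while the normoxia medians of the 3 numbers were 95.7, 95.6 and 95.8. Within numbers 1 and 2 the change of Slc2a2 was −1.23 and −1.37, and within number 3 it was 0.28 (adjusted p = 0.70). Without number 1 or number 2 the call ended (−0.54 and −0.47, adjusted p = 0.394 and 0.350). What set the libraries of number 3 apart was not tested.

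Slc2a1 in liver followed the same split. Its scaled TPM was 2.8, 4.97 and 7.59 in normoxia and 1.88, 3.82 and 6.31 in IH, with ranges that overlapped (log2 change −0.38, adjusted p = 0.00731). Within replicate numbers 1, 2 and 3 the change was −0.68, −0.65 and 0.20. Slc2a8 went from 6.73, 8.68 and 10.9 to 4.78, 6.99 and 11.2 (log2 change −0.23, adjusted p = 0.0206), and 8 of 24 IH libraries lay below the lowest normoxia library. Within numbers 1, 2 and 3 the change of Slc2a8 was −0.33, −0.36 and −0.01, and without number 1 or number 2 limma called neither Slc2a1 nor Slc2a8 in liver. Slc2a5 (0.13), Slc2a9 (−0.20) and Slc2a4 (0.40) did not pass the test in liver. Without the library that stood apart these changes were 0.20, −0.08 and 0.13. Slc2a4 entered the liver test only through the library that stood apart, which held 66.6 scaled TPM against at most 0.83 in the other 47.

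**Figure D3:**
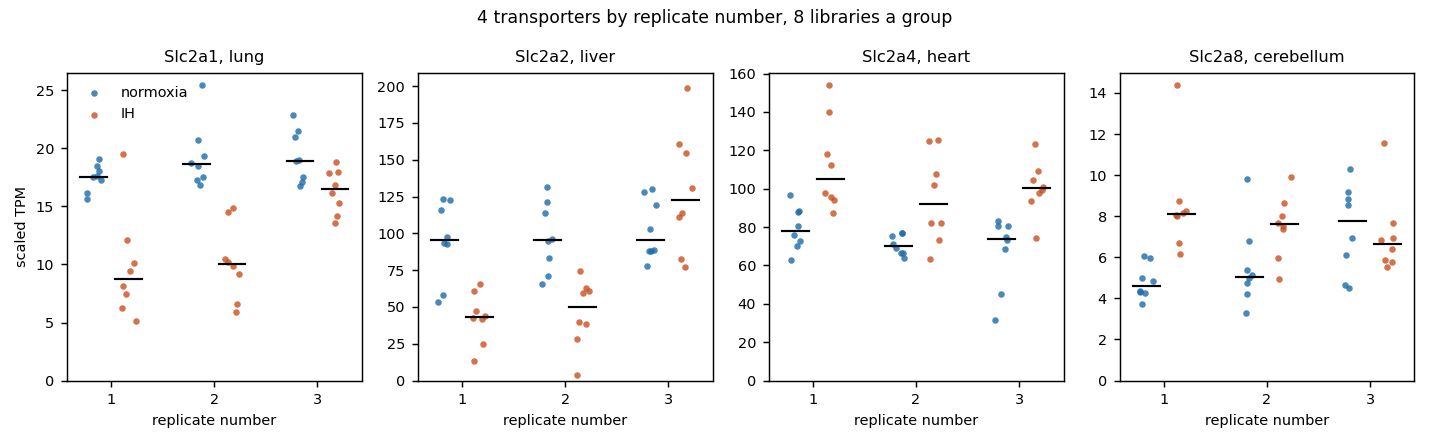
Scaled TPM of 4 transporter genes in the tissue named above each panel, by replicate number. Blue points are normoxia and orange points IH libraries, 8 of each per number (1 per time); black bars are medians.

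Markers of other organs were higher in the liver IH libraries. The marker counts given here were the same by both rules. Of all liver genes, 3.65% were called by the 1.5-fold rule and 24.25% by the adjusted p alone. 3 of 3 proximal tubule markers tested rose, of which Slc34a1 and Miox, with normoxia medians of 0.141 and 0.342 scaled TPM, met the filter through IH libraries; summed, the 6 had 0.735, 3.71 and 92.9 scaled TPM in normoxia and 33.2, 88.7 and 773 in IH, with Kap the most abundant and Cubn near 0. 5 of 5 cardiomyocyte markers tested rose as well (medians 10.2 and 27.1; Myh6 the most abundant), with sums of 9545 in the library that stood apart and 17.1 to 51.5 in the other 23 IH libraries. The normoxia medians of these 5 were 1.04 to 3.17 scaled TPM. Of 6 hepatocyte markers 1 fell, albumin (Alb), with a log2 change of −0.74 (adjusted p = 0.0118), and the sums were 55808, 78172 and 90167 in normoxia and 3075, 62832 and 81853 in IH. Their part in the Slc2a2 change was not tested.

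In heart, Slc2a4 had 31.4, 73.9 and 96.6 scaled TPM in normoxia and 63.5, 100 and 154 in IH. 15 of 24 IH libraries exceeded the highest normoxia library, and means were higher at all 8 times. The log2 change was 0.50 (95% interval 0.32 to 0.68; adjusted p = 1.43e-05), just under 1.5-fold, and within replicate numbers 1, 2 and 3 it was 0.49, 0.39 and 0.63, of which only number 1 passed the test (adjusted p = 0.00695, 0.0569 and 0.0554). The lowest normoxia value came from the heart library that stood apart, and without it the change of Slc2a4 was 0.45. As TPM as deposited it was 0.62, over 1.5-fold.

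The other heart calls were smaller. Slc2a1 had 3.28, 4.22 and 5.22 scaled TPM in normoxia and 4.32, 5.23 and 7.48 in IH, where all 24 IH libraries lay above the normoxia median (log2 change 0.34, adjusted p = 1.07e-06). Slc2a8 went from 3.35, 5.53 and 6.9 to 4.92, 6.65 and 8.98 (0.26, adjusted p = 0.00049), and Slc2a12 from 0.551, 0.976 and 1.35 to 0.743, 1.19 and 1.81 (0.20, adjusted p = 0.0108). Slc2a12 lay near the filter, with a mean of 0.941 TPM as deposited in normoxia and 1.25 in IH. Its call ended without replicate number 1 (0.17, adjusted p = 0.131), and it was called within none of the 3 numbers alone. The ranges of all 4 genes overlapped between treatments. With genes detected as a term 0 of the 4 were called by limma, at changes of 0.28 for Slc2a1, 0.10 for Slc2a4, 0.04 for Slc2a8 and −0.10 for Slc2a12; since that number did not overlap between treatments in heart, the 2 terms cannot be told apart there. Slc2a3 (0.04, and 0.08 without the library that stood apart) and Slc2a9 (−0.12) did not pass the test.

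Among heart cell types, 5 of 6 endothelial markers rose by the adjusted p alone, with summed scaled TPM of 89.4, 271 and 363 in normoxia and 224, 346 and 428 in IH and Pecam1 the most abundant. Of all heart genes 45.23% were called by that rule, 3573 of 12779 rising. Of 6 cardiomyocyte markers 1 rose by that rule, Ryr2, and the sums were 6023, 18044 and 29533 in normoxia and 12625, 16934 and 27346 in IH. No marker of these 2 lists was near 0 in heart, and their part in the Slc2a4 and Slc2a1 changes was not tested.

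Kidney, muscle and cerebellum had 1 call each by the adjusted p alone. Kidney Slc2a1 went from 13.1, 17.6 and 22.1 scaled TPM to 12.8, 21.5 and 30 (log2 change 0.24, adjusted p = 0.0207), and 11 of 24 IH libraries exceeded the highest normoxia library. It was 0.21, −0.02 and 0.53 within replicate numbers 1 to 3. The call ended on TPM as deposited and without replicate number 3. Red cell markers rose in the same kidney libraries for 3 of 4 tested (summed medians 2647 and 4059, Hbb-bs the most abundant, none near 0). Of all kidney genes, 0.78% were called by the 1.5-fold rule and 19.78% by the adjusted p alone. The part of the red cell markers in the Slc2a1 change was not tested. Slc2a2 (−0.18), Slc2a5 (0.02) and Slc2a9 (−0.03), the carriers of the tubule, did not pass the test in kidney. Within replicate number 2 alone the call was Slc2a2, falling (−0.50, adjusted p = 0.0414).

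Muscle Slc2a8 had 9.66, 11.3 and 14.3 scaled TPM in normoxia and 7.85, 10.54 and 13.1 in IH (log2 change −0.14, adjusted p = 0.0244). 5 of 24 IH libraries lay below the lowest normoxia library, and the call was lost on TPM as deposited, without a filter and without replicate number 1 or 2, and was made within none of the 3 numbers alone. Skeletal muscle fibre markers fell in the same libraries for 2 of 6 by the adjusted p alone (0 past 1.5-fold), beside 10.37% of all genes in muscle. Their lowest, median and highest summed scaled TPM were 95702, 111006 and 168787 in normoxia and 58732, 99051 and 117403 in IH. Their median log2 change was −0.17, Acta1 was the most abundant and none was near 0; their part in the Slc2a8 change was not tested. Slc2a4, the main carrier of muscle, had 193, 257 and 326 in normoxia and 204, 250 and 328 in IH (0.03, 95% interval −0.09 to 0.15, adjusted p = 0.831). The ranges of Slc2a4 overlapped almost in full, but within replicate number 3 alone limma called a rise (0.23, adjusted p = 0.0227, medians 210 and 244). Number 3 had the lowest normoxia median, against 269 in number 1 and 270 in number 2, and its IH median lay below both of these.

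Cerebellum Slc2a8 had 3.28, 5.06 and 10.3 scaled TPM in normoxia and 4.93, 7.6 and 14.4 in IH. All but 1 of the 24 IH libraries lay above the normoxia median, though only 2 lay above the highest normoxia library (log2 change 0.38, adjusted p = 0.0117). The change was 0.74, 0.44 and −0.04 within replicate numbers 1, 2 and 3. Number 3 had the highest normoxia median (7.75 against 4.62 and 5.05) and the lowest IH median (6.63 against 8.11 and 7.6). The call of Slc2a8 ended on TPM as deposited (0.37, adjusted p = 0.109), with genes detected as a term (0.29, adjusted p = 0.0668) and without number 1 or number 2. Slc2a1, the main transporter of cerebellum, had 32.8, 50.3 and 70.5 in normoxia and 13.3, 47.6 and 68.8 in IH (−0.09, adjusted p = 0.669), its lowest IH value being in the library that stood apart, and −0.01 without it. The change of Slc2a4 was −0.30 (adjusted p = 0.503), and −0.47 without that library (adjusted p = 0.141). For Slc2a3 the cerebellum change was 0.29 (adjusted p = 0.158), and 0.36 without that library (adjusted p = 0.0248).

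The IH effect was tested for a difference among the 6 tissues with limma on the libraries of all tissues, taken as independent although tissues shared mice. It differed for 7 of 9 transporters, beside 82.22% of 15551 genes. The 7 were Slc2a1, Slc2a2, Slc2a3, Slc2a4, Slc2a8, Slc2a9 and Slc2a12; Slc2a5 (adjusted p = 0.477) and Slc2a10 (0.254) did not pass. Slc2a1 had the widest span, from −0.69 in lung to 0.34 in heart (adjusted p = 3.88e-13). Slc2a8 ran from −0.23 in liver to 0.38 in cerebellum (adjusted p = 2.2e-09). Without replicate number 1 or number 2 the count was 2 of 9.

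Over the day, transporters with a 24-hour rhythm were found in liver, kidney and muscle. In normoxia the limma fit of a 24-hour cosine called 5 of 6 transporters in liver (17.72% of all genes), 4 of 7 in kidney (20.96%) and 1 of 7 in muscle (6.38%). The liver count includes Slc2a4, which met the mean of 1 TPM only through the IH library that stood apart, and without Slc2a4 it was 4 of 5. In lung it called 0 of 7 (9.15%), in heart 0 of 6 (0.63%) and in cerebellum 0 of 6 (0%; 3047 genes at an unadjusted p < 0.05). In IH it called 2 of 7 in kidney (5.74%) and 2 of 7 in muscle (8.83%). It called 0 of 7 in lung (4.65%) and 0 of 6 in liver (2.63%), heart (4.17%) and cerebellum (0.01%). At an unadjusted p < 0.05 the limma test passed 1 of 7 transporters in lung normoxia (23.8% of all genes) and 1 of 7 in lung IH (16.47%). It passed 1 of 6 in liver IH (11.93%), 1 of 6 in heart IH (15.92%) and 3 of 6 in cerebellum normoxia (20.46%). In heart normoxia (6.03%) and cerebellum IH (3.42%) it passed 0 of 6.

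The clock genes placed the time labels. In liver Arntl, a core clock activator, peaked at 22.1 h in normoxia and 21.8 h in IH, and Dbp, a clock output factor, at 10.2 h and 9.68 h. Rhythm peaks below are given on the same labelled hours.

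In liver in normoxia, Slc2a2 had time means of scaled TPM from 72.5 at 22:30 to 127 at 13:30 (3 libraries each). The fitted cosine peaked at 11.5 h with a 1.69-fold difference between peak and trough (adjusted p = 0.0018). Slc2a5 showed the largest liver rhythm, from 2.32 at 13:30 to 5.64 at 7:30, with a peak at 7.76 h and 2.05-fold (adjusted p = 0.0137). Slc2a8 (peak 6.93 h, 1.28-fold, adjusted p = 0.0108) and Slc2a9 (7.86 h, 1.31-fold, adjusted p = 0.0236) peaked near the same hours. No hour is given for Slc2a4, since no liver normoxia library reached 1 TPM. Of the other 4 genes only Slc2a2 was called on TPM as deposited, and none by a rank test against 24-hour cosines. Without replicate number 1, leaving 16 libraries, limma called 0.

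In liver in IH no transporter was called, and the fit includes the library that stood apart. Without it Slc2a5 was called, with a peak at 8.98 h and 2.26-fold (adjusted p = 0.0179), a check chosen after seeing the data.

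**Figure D4:**
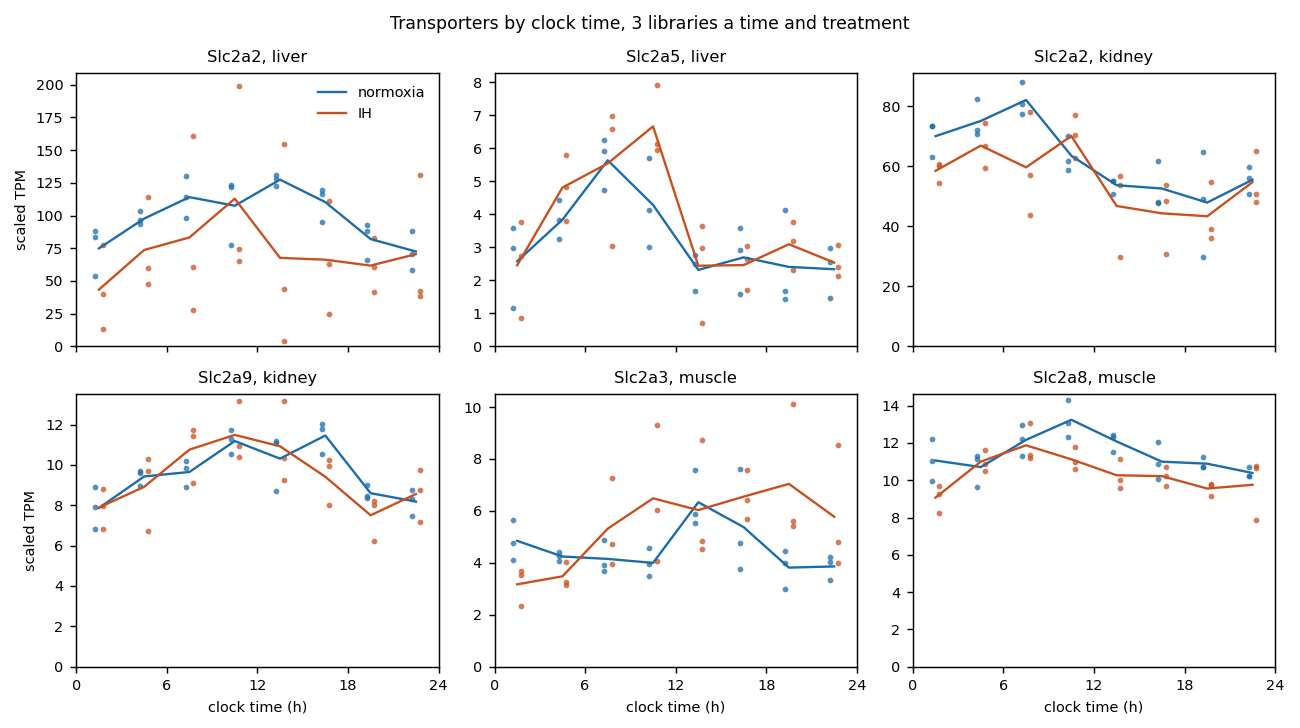
Scaled TPM by labelled hour for 6 pairs of transporter gene and tissue in which a rhythm was called in at least 1 treatment. Points are libraries (3 per time and treatment) and lines join the means; blue is normoxia and orange IH.

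In kidney in normoxia, Slc2a2 had time means from 47.9 at 19:30 to 82.1 at 7:30, with a fitted peak at 5.87 h and 1.66-fold (adjusted p = 0.000551). Slc2a5 peaked at 8.34 h (1.7-fold, adjusted p = 0.0273), Slc2a8 at 6.8 h (1.31-fold, adjusted p = 0.044) and Slc2a9 at 12.3 h (1.37-fold, adjusted p = 0.00129). In IH the kidney calls were Slc2a9, with a peak at 10.7 h and 1.45-fold (adjusted p = 0.016), and Slc2a12, with a peak at 3.64 h and 1.35-fold (adjusted p = 0.0271). Slc2a9 was therefore called in both treatments in kidney. On TPM as deposited only Slc2a2 in normoxia was called in kidney, and the rank test called 0 in both treatments.

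In muscle Slc2a8 was called in normoxia (peak 10.6 h, 1.2-fold, adjusted p = 0.023) and in IH (9.17 h, 1.21-fold, adjusted p = 0.0444). Slc2a3 was called in IH alone: its time means ran from 3.17 at 1:30 to 7.04 at 19:30, with a peak at 15.5 h and 1.81-fold (adjusted p = 0.0421). These muscle calls ended on TPM as deposited and in the rank test. Slc2a4 was not called in muscle in either treatment.

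A rhythm called in 1 treatment does not by itself differ between them. The limma test of that difference called 0 transporters and 0 of all genes (0%) in each of the 6 tissues. At an unadjusted p < 0.05 it passed 289 genes in lung (1.87% of all genes), 86 in liver (0.76%) and 328 in kidney (2.54%). It passed 580 in muscle (4.52%), 72 in heart (0.56%) and 683 in cerebellum (4.59%). Each share was below the p threshold itself, so these counts are no evidence of a difference. The 0 calls do not show that rhythms were the same in both treatments. Among the transporters only Slc2a9 in cerebellum had an unadjusted p below 0.05 (0.0274; adjusted p = 0.825).

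Genes that act with these carriers were counted from lists. Of 14 genes for Slc2a4 trafficking and the insulin signal, 10 rose and 3 fell in heart by the adjusted p alone (median log2 change 0.22, all genes 0.04), and 7 rose and 4 fell in lung (0.06, all genes −0.08). By the same rule 45.23% of all genes were called in heart and 70.43% in lung. In the other tissues at most 3 rose and 1 fell. In heart, genes chosen after their values were seen included Sort1, a sorting receptor of Slc2a4 vesicles (log2 change 0.56, adjusted p = 6.85e-05), and Irs2, an adaptor of the insulin receptor (0.45, adjusted p = 1.8e-05). Stx4a, a fusion protein of the cell surface, fell (−0.28, adjusted p = 4.85e-05).

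Of 9 hexose kinases and first enzymes, 1 rose and 3 fell among 6 tested in lung, where the main hexokinase of many tissues, Hk1, had a log2 change of −0.58 (adjusted p = 1.51e-06). These 4 of 6 stand beside 70.43% of all genes called in lung. In heart 1 of 5 rose, also Hk1 (0.36, adjusted p = 3.62e-05), beside 45.23% of all genes called. In the other 4 tissues limma called 0. At an unadjusted p < 0.05 limma passed 1 in liver (37% of all genes), 2 in kidney (33%), 1 in muscle (23.9%) and 1 in cerebellum (30.3%). Among 5 regulators of uptake and glucose sensors, Mlxipl and Mlxip, 2 partners of glucose-responsive transcription, rose past 1.5-fold in lung, beside 13.48% of all genes called by that rule. Mlxipl went from a median of 2.30 to 5.30 scaled TPM (1.08, adjusted p = 5.34e-09) and Mlxip from 17.2 to 26.4 (0.61, adjusted p = 7.29e-10). By the adjusted p alone 2 of the 5 rose and 2 fell in lung, beside 70.43% of all genes called. Those falling were Mlx (−0.23, adjusted p = 2.29e-05) and Txnip, which restrains glucose uptake (−0.56, adjusted p = 8.31e-08). Txnip rose in kidney (0.35, adjusted p = 0.0354), beside 19.78% of all genes called. By the same rule 1 of the 5 rose in liver (24.25% of all genes called). In muscle (10.37%), heart (45.23%) and cerebellum (15%) 1 of the 5 fell.

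Of 10 factors known to act on Slc2a genes, 3 of 8 tested rose in heart, Mef2a (0.21), Mef2c (0.33) and Foxo1 (0.35), and 0 fell, beside 45.23% of all genes called. In lung 2 rose and 1 fell of 8 tested, beside 70.43%. In liver limma called 0 of 10, and 2 passed at an unadjusted p < 0.05, beside 37% of all genes. Among 10 other sugar transporters, 1 of 3 tested fell in lung, the sodium-linked Slc5a1 (−0.40, adjusted p = 0.000855), beside the same 70.43%. Elsewhere limma called 0, including 6 tested in kidney. Of these 6, 2 passed at an unadjusted p < 0.05, beside 33% of all kidney genes. Of 4 clock genes tested in lung, limma called only Per2 by either rule, and it rose past 1.5-fold (0.74, adjusted p = 0.0201). The median log2 change of the 4 was −0.27. By the 1.5-fold rule 13.48% of all lung genes were called.

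Slc2a4 in cerebellum varied widely between libraries and moved with markers of muscle and fat. It ran from 2.6 to 24.2 scaled TPM in normoxia and from 2.08 to 92.8 in IH, with medians of 6.44 and 4.19. The 6 cardiomyocyte markers summed to 45.6, 693 and 3131 in normoxia and 44.9, 378 and 11614 in IH, and the highest Slc2a4 and the highest sum were in the same library, that of IH replicate 3 at 1:30. In it the neuron markers summed to 771, against 1800 to 5930 in the other 23 IH libraries.

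Relations of Slc2a4 with 3 marker sums, cardiomyocyte, skeletal muscle fibre and adipocyte, were computed on log2 values over the 24 libraries of each treatment in cerebellum and lung. This made a family of 12, chosen after seeing the data, with permutation p-values (100000 resamples) adjusted over the 12. For cardiomyocyte markers in cerebellum, Pearson r was 0.90 in normoxia and 0.94 in IH (permutation p = 1e-05 in both, the smallest possible; adjusted p = 1.71e-05) and Spearman rho was 0.951 and 0.926 (permutation p = 1e-05; adjusted p = 1.71e-05). Without the 2 libraries farthest in the marker sum r was 0.933 and 0.895. Slc2a4 was thus highest in the cerebellum libraries with the most cardiomyocyte transcripts.

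Adipocyte markers gave r of 0.905 and 0.948 in cerebellum in normoxia and IH (rho 0.950 and 0.924; all permutation p = 1e-05, adjusted p = 1.71e-05; r without 2 libraries 0.944 and 0.900). Skeletal muscle fibre markers gave r of 0.773 (permutation p = 2e-05, adjusted p = 3e-05) and 0.841 (p = 1e-05, adjusted p = 1.71e-05). Their rho was 0.917 (p = 1e-05, adjusted p = 1.71e-05) and 0.743 (p = 4e-05, adjusted p = 6e-05), and r without 2 libraries was 0.906 and 0.648. The 3 sums come from the same libraries, and their parts were not told apart.

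**Figure D5:**
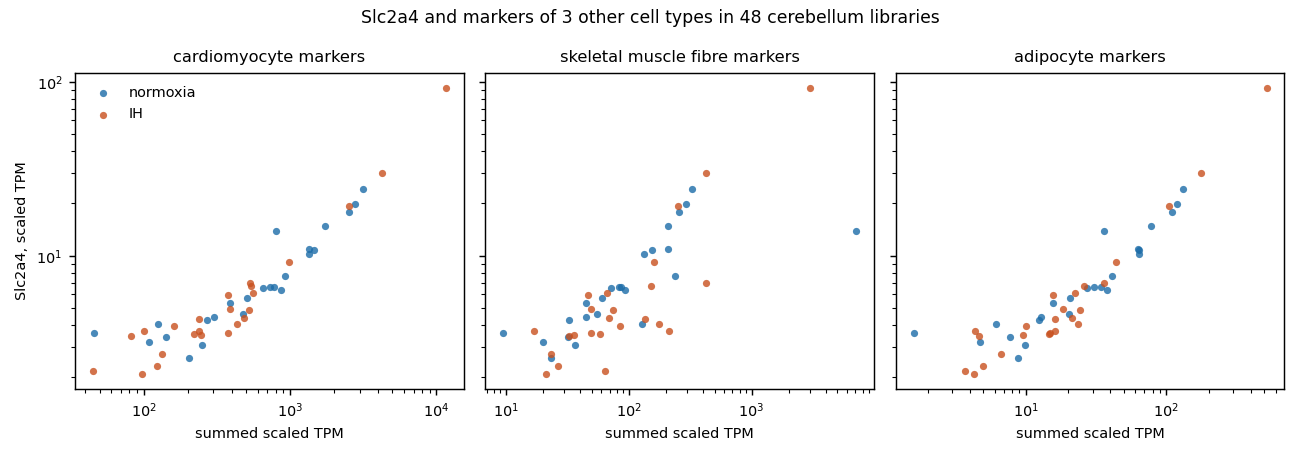
Slc2a4 against the summed scaled TPM of 6 markers each of cardiomyocytes, skeletal muscle fibres and adipocytes in 48 cerebellum libraries, on log axes. Blue points are normoxia and orange points IH; each point is 1 library.

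In lung the closest relation of Slc2a4 was with adipocyte markers in normoxia (r = 0.904, rho = 0.847, both permutation p = 1e-05 and adjusted p = 1.71e-05; r without 2 libraries 0.885). In IH it was with cardiomyocyte markers (r = 0.853, rho = 0.864, both permutation p = 1e-05 and adjusted p = 1.71e-05; r without 2 libraries 0.788). The other 4 lung relations had r between 0.412 and 0.531, with adjusted p from 0.0105 to 0.0344 for r and from 0.0147 to 0.0527 for rho. Without 2 libraries the skeletal muscle fibre relations were 0.198 in normoxia and 0.204 in IH, the cardiomyocyte relation in normoxia 0.402 and the adipocyte relation in IH 0.521. The source of the marker transcripts was not tested.

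Genes with a similar pattern were found by Pearson r over 96 means of tissue, treatment and time, among 15551 genes. The means were of TPM as deposited and covered all tissues together, so each r includes the differences in level between tissues. Likeness over treatment and time within a tissue was not tested. The closest to Slc2a1 were Atp6ap2 (r = 0.983), Id4 (0.982) and Tsr2 (0.981), and to Slc2a2 F13b, Serpinf2 and Timd2 (0.997 each). Slc2a3 was closest to Tmeff2 (0.978), Ppp3ca (0.976) and Slc24a3 (0.973), and Slc2a4 to Pgam2 (0.988), Ppp2r3a (0.986) and Ccng1 (0.980). Slc2a5 was closest to Pter (0.968), Tmem120a (0.955) and Cryz (0.952), and Slc2a8 to Nploc4 (0.888), Dcaf5 (0.877) and Epg5 (0.869), the lowest of the 9. For Slc2a9 the closest were Acsm1 (0.979), Acox2 (0.976) and Slc35d2 (0.974). For Slc2a10 they were Frmd6 (0.988), Hip1 (0.985) and Prrg3 (0.983), and for Slc2a12 Osbpl6 (0.979), Phc1 (0.974) and Fhl1 (0.969).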

How the data were processed

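The authors extracted RNA with Trizol, built stranded libraries, demultiplexed with bcl2fastq, inspected reads with FastQC 0.11.3 and quantified transcripts with Kallisto against Ensembl release 102 (mm10); the deposited values are TPM per gene. They ran DESeq2 on estimated counts, which are not used here. TPM keeps no depth, so the precision of each library is unknown. Here limma 3.58.1 in R 4.3.3 was fitted to log2 of scaled TPM plus 0.5, with Benjamini-Hochberg adjustment over all genes whose mean reached 1 TPM. Libraries were grouped by tissue and treatment from their labels, all were kept, and the fits were tested on simulated data. Rhythms were tested as a 24-hour cosine within tissue and treatment, with a re-implemented JTK rank test as an alternative. Tissue levels were compared by permutation, and Python 3.11.15, numpy 2.4.6, scipy 1.17.1, pandas 2.3.3 and matplotlib 3.10.9 were used. Named genes were the 9 transporters and each gene of the lists past the 1.5-fold rule; the 9 genes and the lists were chosen with earlier results of these data known. Other genes named were chosen after their values were seen.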

Additional observations from a re-analysis of the deposited data

Results flagged for a closer look

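7 transporters were flagged because their IH effect differed among the 6 tissues in the limma interaction test; each value is the span of the log2 changes. Slc2a1 spanned 1.03, from −0.69 in lung to 0.34 in heart (adjusted p = 3.88e-13). Slc2a2 spanned 0.87, from −0.77 in liver to 0.10 in lung, where it lay below 1 TPM (adjusted p = 3.28e-05). Slc2a4 spanned 0.80, from −0.30 in cerebellum to 0.50 in heart (adjusted p = 0.042), and 0.92 without the 3 libraries that stood apart, where the cerebellum change was −0.47. Slc2a8, the transporter with the most even levels, spanned 0.62, from −0.23 in liver to 0.38 in cerebellum (adjusted p = 2.2e-09). For Slc2a12 the span was 0.53, from −0.33 in lung to 0.20 in heart (adjusted p = 0.000338). For Slc2a3 it was 0.50, from −0.22 in lung to 0.29 in cerebellum (adjusted p = 0.0133). Slc2a9 spanned 0.46, from −0.35 in cerebellum to 0.11 in lung, and its adjusted p of 0.0497 was close to the threshold. 82.22% of all genes were called in the same test, so a call was the usual outcome. No group had 4 to 10 samples, so no sample was tested as an outlier, and the causes of these differences were not tested.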

How the results depend on the processing

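Each count was recomputed under other settings, and those that changed by more than 1.5-fold, or to or from 0, are given here; changes of the pseudocount and the time point as a term changed no treatment count. The counts within 1 replicate number, without the heart library and without the library that stood apart in rhythms and in the interaction were chosen after seeing the data.

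In lung the 1 transporter past 1.5-fold became 0 on TPM as deposited, 2 within replicate number 1 and 0 to 2 without 1 replicate number. The 4 falls by adjusted p alone became 1 fall and 3 rises on TPM as deposited, 2 rises with genes detected as a term (Slc2a4 and Slc2a12, with Slc2a4 in place of Slc2a1 past 1.5-fold), and 1 to 6 calls without 1 replicate number. Genes whose sign turned on TPM as deposited included Slc2a3 (0.061), Slc2a8 (0.144) and Slc2a10 (0.24). Slc2a4, with a scaled change of −0.002, also had a higher mean in IH as deposited (5.28 TPM in normoxia and 6.57 in IH). With genes detected as a term the sign turned for Slc2a4 (0.596), Slc2a8 (0.169) and Slc2a12 (0.296). Within replicate number 3, those turning included Slc2a4 (0.902), Slc2a8 (0.097) and Slc2a12 (0.204).

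In liver the 1 transporter past 1.5-fold became 2 within replicate number 1, 2 within number 2, 0 within number 3 and 0 to 2 without 1 number. The 3 by adjusted p alone became 0 within number 3 and 0 to 3 without 1 number. Within number 3 Slc2a1 (0.203) and Slc2a2 (0.282) had the other sign.

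In kidney the 1 call by adjusted p alone became 0 on TPM as deposited, 3 with genes detected as a term, 0 within replicate number 1 and 0 to 2 without 1 number. Within number 2 Slc2a1 was −0.024 and the call was Slc2a2, falling. In muscle the 1 call became 0 without a filter, 0 on TPM as deposited, 0 within number 1, 0 within number 2 and 0 to 2 without 1 number, and within number 3 it was Slc2a4, rising.

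In heart 1 transporter, Slc2a4, passed 1.5-fold on TPM as deposited. The 4 calls by adjusted p alone became 2 with a mean of at least 5 TPM, 0 with genes detected as a term, 1 within replicate number 2 and 1 within number 3; the Slc2a12 call ended without number 1. Slc2a12 was −0.097 with genes detected as a term.

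In cerebellum the 0 past 1.5-fold became 1 within replicate number 1 and 0 to 1 without 1 number. The 1 call by adjusted p alone became 0 on TPM as deposited, 0 with genes detected as a term, 2 without the library that stood apart, 0 within number 3 and 0 to 3 without 1 number, and within number 2 it was Slc2a3 in place of Slc2a8. Slc2a8 was −0.041 within number 3.

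For 24-hour rhythms, liver in normoxia, with Slc2a4 counted, went from 5 to 3 with a mean of at least 5 TPM, 2 on TPM as deposited, 1 in the rank test and 0 to 5 without 1 replicate number. Liver in IH went from 0 to 1 without the library that stood apart. Kidney in normoxia went from 4 to 1 on TPM as deposited, 0 in the rank test and 1 to 3 without 1 number. Kidney in IH went from 2 to 1 with a mean of at least 5 TPM, 0 on TPM as deposited, 0 in the rank test and 0 to 1 without 1 number. Muscle in normoxia went from 1 to 0 on TPM as deposited, 0 in the rank test and 0 to 1 without 1 number. Muscle in IH went from 2 to 0 on TPM as deposited, in the rank test (0) and without any 1 number (0). Lung in normoxia was 0 to 1 without 1 number.

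With the replicate number as a block, the rhythm count was 1 in lung in IH, 4 in kidney in IH, 5 in kidney in normoxia and 3 in muscle in IH. Residuals of normoxia and IH libraries with the same time and number had a median r of −0.136 to 0.103 in 5 tissues and 0.224 in liver, where 16 of 24 pairs exceeded 0.1. The block was not used for the results, and in liver it changed no count. With libraries of different tissues but the same treatment, time and number as a block, 7 transporters differed among tissues in their IH effect and 126 tissue level pairs differed.

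The difference of rhythm between treatments stayed at 0 under every setting. The 7 transporters whose IH effect differed among tissues were 2 to 7 without 1 replicate number and 6 on TPM as deposited, with a pseudocount of 1 TPM or with a mean of at least 5 TPM. Of the tissue level pairs 127 differed, and 119 to 125 without 1 replicate number.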
